A study of Homo sapiens with 6 samples.

Results

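Nonmuscle myosin II is the motor that pulls actin filaments against each other, and this account follows the genes of its heavy chains, its light chains and the kinases that switch it on. The members were taken by symbol from the deposited table of gene counts: the heavy chain genes MYH9, MYH10 and MYH14, the light chain genes MYL6, MYL9, MYL12A and MYL12B, and the kinase genes MYLK, ROCK1 and ROCK2. All 10 were found among 61155 symbols, and all 10 passed the filter on low counts. The cells were MDA-MB-231, a mesenchymal breast cancer line of human origin, sequenced as 3 libraries of VASP knockdown cells and 3 control libraries, each harvested 48 hours after transient transfection with Lipofectamine. Titles name a short hairpin against VASP (shVASP) and a hairpin vector (plko), whereas other labels name a VASP siRNA and a negative control siRNA. The grouping is the same by either label, and the labels name no separate cultures, so the spread behind the p-values is that of these libraries alone and may be technical.

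The motor is a hexamer of a pair of heavy chains, a pair of essential light chains and a pair of regulatory light chains. Phosphorylation of a neighbouring threonine and serine in the regulatory light chain unfolds the molecule, lets it assemble into filaments and raises its activity. Myosin light chain kinase, the product of MYLK, does this when calcium-loaded calmodulin binds it, and the kinases ROCK1 and ROCK2 do so downstream of RhoA, partly by inhibiting the phosphatase that reverses the reaction. In migrating breast cancer cells the motor is known for contracting the cell rear and maturing focal adhesions, where VASP also elongates actin filaments.

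The regulatory light chain is encoded by MYL9, MYL12A and MYL12B, and their coding sequence around the phosphorylated pair is shown because it is the point at which the kinases act on the chains. Each stretch is 60 bases of the coding strand from GENCODE release 29 on GRCh38, with the codons of the threonine and serine in capitals. It lies at chr20:36544912-36544971 for MYL9, chr18:3253272-3253331 for MYL12A and chr18:3272926-3272985 for MYL12B, all on the plus strand and each within 1 exon.
MYL9: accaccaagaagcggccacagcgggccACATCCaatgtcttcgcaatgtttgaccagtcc
MYL12A: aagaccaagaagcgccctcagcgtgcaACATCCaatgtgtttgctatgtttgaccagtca
MYL12B: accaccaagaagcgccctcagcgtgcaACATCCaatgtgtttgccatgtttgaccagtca
The capital codons are the same in all 3 genes. Over the stretch MYL12A and MYL12B differed at 3 bases, MYL12A and MYL9 at 10, and MYL12B and MYL9 at 8. Over the whole coding sequence MYL12A and MYL12B were 95.2% identical, with a longest shared run of 77 bases, while MYL9 was 78.9% identical to MYL12A and 80.8% identical to MYL12B. Fragments that align equally well to more than 1 place were not counted at the counting program's defaults. Counts of MYL12A and MYL12B therefore leave out any fragments that match both genes equally well, and how many did so was not examined.

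Libraries held 28997712 to 30055503 counts in knockdown cells and 28856610 to 29897430 in control cells, and VASP itself fell in the knockdown libraries. VASP had 396, 379 and 360 counts in knockdown cells, against 4544, 5036 and 4708 in control cells (log2 fold change -3.69, SE 0.06, edgeR adjusted p = 8.3e-24). Mesenchymal markers of the line (VIM, CD44, AXL, CAV1 and MSN) summed to 6259 to 6425 CPM (counts relative to library size after TMM scaling) in knockdown libraries and 6448 to 6476 CPM in control libraries, and no marker of the 5 passed the test. MYH11, the smooth muscle heavy chain, had a count of 0 in all 6 libraries, where 3 counts are worth 0.0998 to 0.104 CPM of the library totals without TMM scaling. Smooth muscle markers summed to 61.5 to 65.9 CPM in knockdown and 59.7 to 68.5 CPM in control libraries, nearly all from SMTN. Fibroblast, endothelial and leukocyte markers summed to at most 6.90, 3.43 and 0.424 CPM in any library. In bulk RNA, fewer cells with a transcript and less of it per cell cannot be told apart.

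Of the 10 members, 4 rose and 3 fell after VASP knockdown, with both directions among the heavy chains, the light chains and the kinases. The heavy chain MYH9, the light chain MYL9 and the kinase MYLK fell by 1.23- to 1.31-fold. MYL12B, ROCK1, ROCK2 and the scarce heavy chain MYH14 rose by 1.23- to 1.56-fold. MYH10, MYL6 and MYL12A did not pass the test. Called here means an adjusted p under 0.05 in edgeR's quasi-likelihood test over all 16633 genes tested. By that rule 37.2% of all genes were called, 18.9% as rising and 18.3% as falling, against 70% of the members. Knockdown and control libraries did not overlap for 8 of the 10 members, against 47.6% of all genes. The members were chosen with earlier results of these data known, so these shares are descriptions. The median log2 fold change of the members was 0.03, against -0.01 for all genes, and the median absolute log2 fold change was 0.33, against 0.19.

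**Figure D1:**
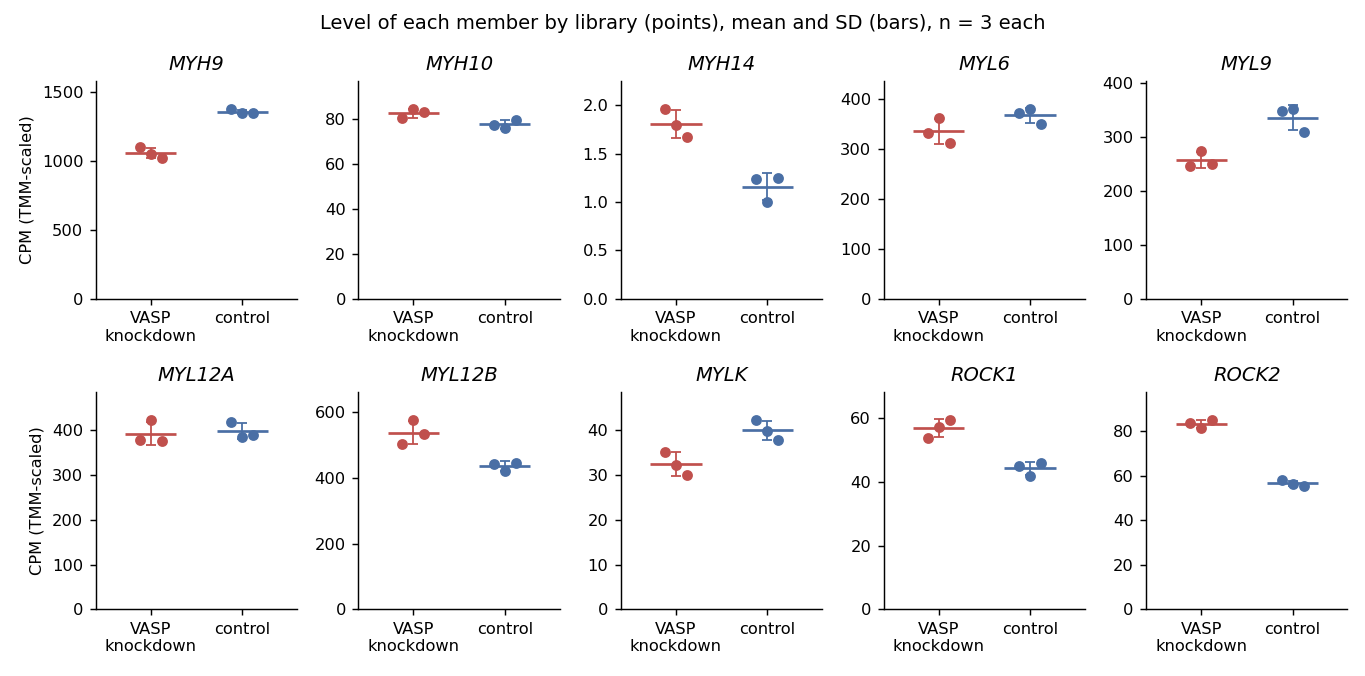
Level of each member in CPM (TMM-scaled, linear axes from 0) in 3 VASP knockdown libraries (red, left) and 3 control libraries (blue, right), with points for libraries, long bars for means and error bars for the SD. MYH9, MYL9 and MYLK sit lower in every knockdown library, MYL12B, ROCK1, ROCK2 and MYH14 sit higher in every one, and the groups overlap for MYL6 and MYL12A.

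MYH9 encodes the heavy chain of nonmuscle myosin IIA, the main contractile isoform of most non-muscle cells (chromosome 22, 36281277 to 36388067, minus strand). Its level was 1100.3, 1055 and 1026 CPM in the knockdown libraries, against 1376, 1348 and 1351 CPM in the control libraries. Every knockdown library lay below every control library, and the gap between them exceeded the SD of either group. The mean fell to 1061 ± 37.2 CPM in knockdown cells, against 1358 ± 15.6 CPM in control cells (SD, n = 3 each), with a log2 fold change of -0.36 (SE 0.05, edgeR adjusted p = 9.5e-06). MYH9 kept this call in all 12 alternatives that test against no change, with log2 fold changes of -0.38 to -0.24.

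MYH10 encodes the heavy chain of myosin IIB, which holds tension for longer and is enriched at the cell rear (chromosome 17, 8474205 to 8630761, minus strand). It stood at 80.1, 84.1 and 83.0 CPM in knockdown libraries and 77.3, 75.8 and 79.5 CPM in control libraries. The knockdown values were all above the control values, yet the gap was small and MYH10 did not pass (log2 fold change 0.09, 95% interval -0.01 to 0.19, edgeR adjusted p = 0.16). MYH14 encodes the heavy chain of myosin IIC, an isoform of epithelial cells (chromosome 19, 50188186 to 50310542, plus strand). It had 60, 53 and 49 counts in knockdown libraries, against 36, 29 and 36 in control libraries, which is 1.81 ± 0.144 CPM and 1.16 ± 0.138 CPM (SD, n = 3 each). The groups did not overlap and MYH14 rose 1.56-fold (log2 fold change 0.64, SE 0.19, edgeR adjusted p = 0.0092), but with so few counts the 95% interval ran from 0.25 to 1.02. Without control library 2, its lowest, the log2 fold change was 0.54 and the adjusted p was 0.056.

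MYH9 was the 1 heavy chain that fell, and its share among heavy chain transcripts was lower in knockdown cells. In counts per kilobase of merged exon, MYH9 made up 93.1%, 92.5% and 92.4% of the heavy chain total in knockdown libraries, against 94.6%, 94.6% and 94.4% in control libraries. The share of MYH10 was 7.21 ± 0.374% in knockdown cells and 5.40 ± 0.139% in control cells, and that of MYH14 was 0.137 ± 0.00665% and 0.0700 ± 0.00791% (SD, n = 3 each). For each of the 3 shares the groups did not overlap, and an exact two-sided permutation test gave p = 0.10, the smallest that 3 against 3 libraries allow (adjusted p = 0.10 over 7 shares tested). The 3 heavy chains together came to 1182, 1141 and 1111 CPM in knockdown libraries and to 1455, 1425 and 1431 CPM in control libraries.

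MYL6 encodes the essential light chain, which stiffens the lever arm of the motor (chromosome 12, 56158161 to 56163496, plus strand). It stood at 332, 362 and 313 CPM in knockdown libraries and at 372, 379 and 350.1 CPM in control libraries, with knockdown library 2 inside the control range. MYL6 did not pass (log2 fold change -0.13, SE 0.05, edgeR adjusted p = 0.059), though it did without control library 3 (adjusted p = 0.020) or without knockdown library 2 (adjusted p = 0.021). Of its exon bases, 18.4% are shared with MYL6B, SMARCC2 or AC034102.5, and fragments lying wholly within those bases could not be assigned to it.

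MYL9, the regulatory light chain best known from smooth muscle and a classic target of the actin-sensitive factor SRF, fell (chromosome 20, 36541497 to 36551447, plus strand). It had 7561, 8092 and 7346 counts in knockdown libraries, against 10131, 10165 and 8920 in control libraries. Its level fell to 257 ± 14.8 CPM in knockdown cells, against 335 ± 23.4 CPM in control cells (SD, n = 3 each), with a log2 fold change of -0.39 (SE 0.06, edgeR adjusted p = 9.8e-06). The highest knockdown value of 274 CPM lay under the lowest control value of 308 CPM. The tandem genes MYL12A and MYL12B encode the widely expressed regulatory light chains of non-muscle cells and lie next to each other on chromosome 18 (3247481 to 3256236 and 3261479 to 3278431, plus strand).

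MYL12B rose, and its neighbour MYL12A did not pass. MYL12B stood at 503, 575 and 532 CPM in knockdown libraries, against 443, 419 and 446 CPM in control libraries. All knockdown values lay above the control values, and the log2 fold change was 0.30 (SE 0.05, edgeR adjusted p = 0.00011). MYL12A stood at 379, 423 and 377 CPM in knockdown libraries and at 418, 386 and 389 CPM in control libraries, and the groups overlapped. Its log2 fold change was -0.02 with a 95% interval of -0.13 to 0.09 (edgeR adjusted p = 0.81). Its sign was positive in 5 of the 12 alternatives, with log2 fold changes of -0.09 to 0.02 over all of them. Processed copies took few fragments: MYL12BP1 had 10 to 17 counts in knockdown and 12 to 18 in control libraries, and MYL12BP2 had 8 to 9 and 3 to 15.

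The regulatory light chains together came to 1186 ± 75.1 CPM in knockdown cells and 1169 ± 34.4 CPM in control cells (SD, n = 3 each), so their sum differed by less than the spread while their make-up moved. The count of MYL12B per count of MYL9 was 2.04, 2.10 and 2.13 in knockdown libraries, against 1.28, 1.196 and 1.45 in control libraries. Per kilobase of merged exon, MYL9 held 18.7 ± 0.196% of the regulatory light chain total in knockdown cells and 25.5 ± 1.63% in control cells. MYL12B held 56.7 ± 0.659% in knockdown cells and 48.3 ± 1.62% in control cells, and MYL12A held 24.7 ± 0.491% and 26.2 ± 0.494% (SD, n = 3 each). The groups did not overlap for any of the 3 shares, and each exact permutation test gave p = 0.10, the smallest possible (adjusted p = 0.10). Scaled by the length of the principal transcript instead, the share of MYL9 was 10.8% in knockdown cells and 15.0% in control cells, with the same direction for all 3. With counts not divided by length, the share of MYL12A was 33.1 ± 0.553% in knockdown cells and 34.0 ± 0.614% in control cells (SD, n = 3 each), and its groups overlapped.

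**Figure D2:**
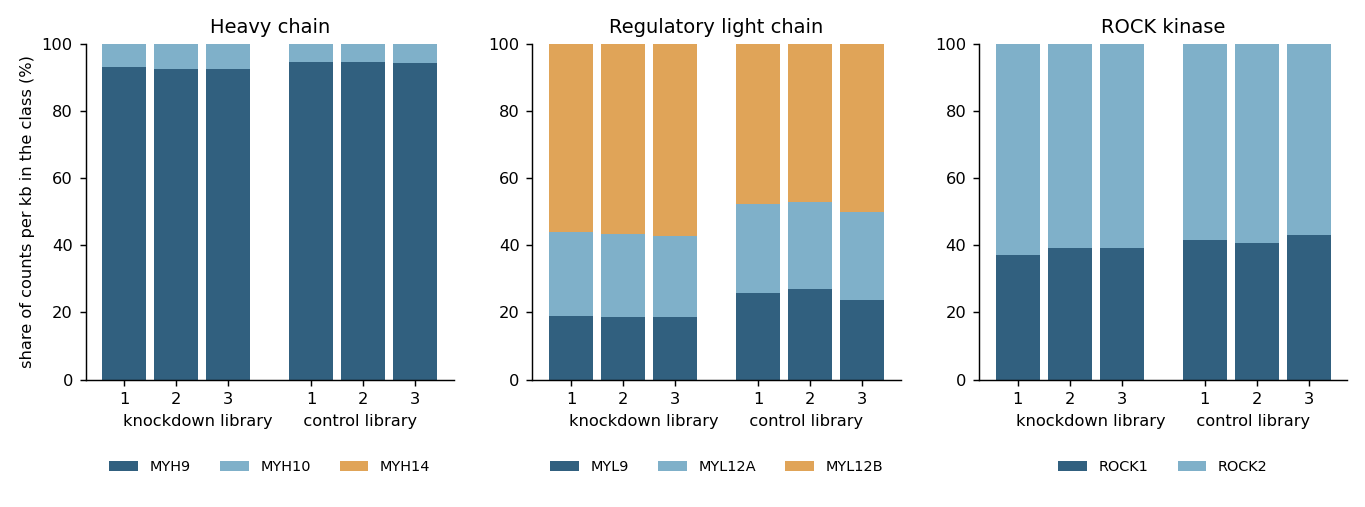
Share of each gene in the counts per kilobase of merged exon of its class (%), one stacked bar per library, knockdown libraries left and control libraries right. In the regulatory light chains the MYL9 band is thinner in each of the 3 knockdown libraries (18.5% to 18.9%) than in any control library (23.8% to 27.1%), and the MYL12B band is thicker; MYH14 is too scarce to be seen among the heavy chains.

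The kinases moved in opposite directions. MYLK, whose product is activated by calmodulin, fell (chromosome 3, 123610049 to 123884331, minus strand). It stood at 35.2, 32.2 and 29.96 CPM in knockdown libraries, against 42.3, 39.8 and 37.8 CPM in control libraries. The groups did not overlap, and the log2 fold change was -0.30 (SE 0.06, edgeR adjusted p = 0.00079). The gene gives rise to long and short forms of the kinase and to telokin, a short C-terminal product, and counts per symbol do not separate them. Its antisense gene MYLK-AS1 had 31 to 38 counts in knockdown libraries and 31 to 42 in control libraries, and MYLK-AS1 and MYLK-AS2 share 3.20% of the MYLK exon bases.

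ROCK2 had the smallest p of the 10 members (chromosome 2, 11179759 to 11348330, minus strand). ROCK2 had 2567, 2415 and 2500 counts in knockdown libraries, against 1692, 1636 and 1605 in control libraries. It rose to 83.5 ± 1.72 CPM in knockdown cells, against 56.6 ± 1.26 CPM in control cells (SD, n = 3 each), 1.47-fold with a log2 fold change of 0.56 (SE 0.05, edgeR adjusted p = 8.6e-09). ROCK2 was the 1 member that also passed a test against a fold change of 1.2 (edgeR glmTreat, adjusted p = 3.0e-05). ROCK1, its close relative, rose as well (chromosome 18, 20946906 to 21111813, minus strand). It stood at 53.9, 57.2 and 59.3 CPM in knockdown libraries, against 45.1, 41.9 and 45.8 CPM in control libraries (log2 fold change 0.36, SE 0.06, edgeR adjusted p = 2.6e-05). Its partial copy ROCK1P1 had 41 to 66 counts in knockdown and 37 to 50 in control libraries and did not pass (log2 fold change 0.36, SE 0.20, edgeR adjusted p = 0.16).

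On the log2 scale ROCK2 rose by 0.56 and ROCK1 by 0.36. ROCK2 made up 62.8%, 60.8% and 60.9% of the ROCK counts per kilobase in knockdown libraries, against 58.3%, 59.4% and 56.8% in control libraries, and the groups did not overlap (exact permutation p = 0.10, the smallest possible, adjusted p = 0.10). Together the ROCK genes came to 140.3 ± 3.65 CPM in knockdown cells and 101 ± 2.41 CPM in control cells (SD, n = 3 each). Per count of MYLK there were 2.37, 2.53 and 2.84 counts of ROCK2 in knockdown libraries, against 1.37, 1.42 and 1.47 in control libraries.

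**Figure D3:**
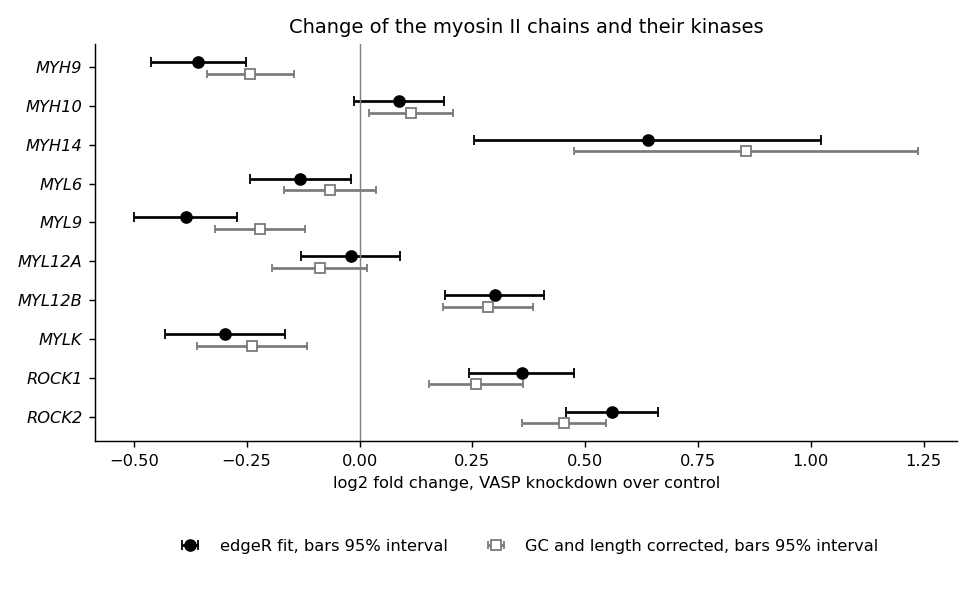
Log2 fold change of each member, VASP knockdown over control, from the edgeR fit (filled circles) and with GC content and length corrected for (open squares), each with its 95% interval. ROCK2 has the narrow interval of 0.46 to 0.66, MYH14 the wide one of 0.25 to 1.02, and the signs of the 7 called members are the same with and without the correction.

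Levels between members can be compared per kilobase of transcript. Per kilobase of the principal coding transcript, control levels were 407.7 CPM for MYL6, 349 ± 11.6 for MYL12B, 324 ± 14.5 for MYL12A, 179.8 ± 2.07 for MYH9 and 119 ± 8.31 for MYL9 (SD, n = 3). After these came MYH10 (10.1), ROCK2 (6.83), ROCK1 (4.67), MYLK (3.98) and MYH14 (0.170 CPM per kilobase in control cells). In control libraries the ranges of MYL12B and MYL12A overlapped, and no other neighbours in that order did. In knockdown libraries MYL12B, at 429.6 ± 28.8 CPM per kilobase, stood ahead of MYL6, at 372 ± 27.5, and the other places were the same. The order depends on the length used: per kilobase of all merged exons MYL6 held rank 5 in both groups.

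Across the whole table, genes of low GC content tended to be higher in knockdown libraries and genes of high GC content lower. The tenth of genes lowest in GC, up to 39.2%, had a median log2 fold change of 0.18, and the tenth highest, from 61.6%, had one of -0.24. ROCK2 (40.2% GC), ROCK1 (40.5%) and MYL12B (45.2%) lie on the low side, and MYH9 (58.0%) and MYL9 (60.7%) on the high side. MYH14 is high in GC, at 64.0%, and rose. Once each library was corrected for GC and length, 29.3% of all genes were called, and all 7 called members kept their direction and their call. The log2 fold changes were then 0.45 for ROCK2, 0.26 for ROCK1, 0.29 for MYL12B, 0.86 for MYH14, -0.24 for MYH9, -0.22 for MYL9 and -0.24 for MYLK, with edgeR adjusted p of at most 0.0044. The part of GC content in these changes was not tested beyond this correction.

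**Figure D4:**
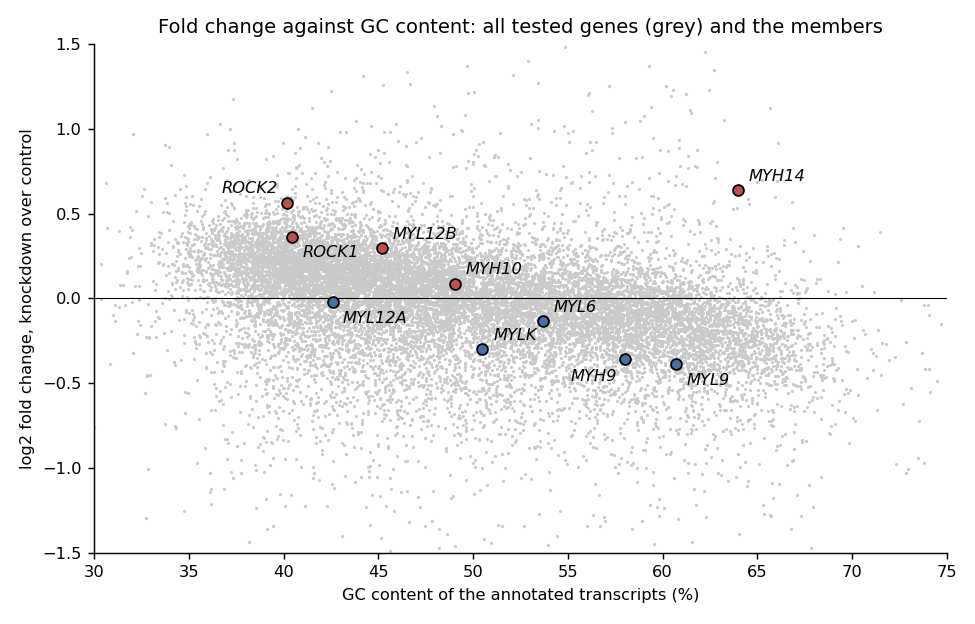
Log2 fold change, VASP knockdown over control, against GC content of the annotated transcripts (%) for 16157 tested genes (grey; 50 more lie outside the axes) and the members (red above 0, blue below). The grey cloud slopes downward from a median of 0.18 at the low end of GC to -0.24 at the high end, ROCK2 and ROCK1 lie at its upper left, MYH9 and MYL9 at its lower right, and MYH14 stands above it.

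A start-site window inside MYLK and one inside ROCK2 are shown because they hold the CArG box, the site bound by SRF. Promoter windows from RefSeq on GRCh38.p14, from 250 bases before a start site to 50 after it, were found for 9 members in 14 windows. MYL9 is the member with no entry. Exact CArG boxes, a motif that reads alike on both strands, were present in 2 of the 9 members and in 438 of 27305 genes (1.6%). Each stretch is 100 bases around the box on the gene's own strand, all of it before the start site, at chr3:123620588-123620687 (minus strand) for MYLK and chr2:11345456-11345555 (minus strand) for ROCK2, with the box in capitals.
MYLK: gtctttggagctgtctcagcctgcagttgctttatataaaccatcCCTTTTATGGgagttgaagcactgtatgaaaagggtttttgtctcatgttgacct
ROCK2: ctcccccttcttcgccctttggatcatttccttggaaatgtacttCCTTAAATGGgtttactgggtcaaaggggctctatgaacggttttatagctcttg
The box starts 94 bases before the start site in MYLK and 73 bases before it in ROCK2, and both windows belong to internal starts. The MYLK window lies near the 3' end of the gene, far downstream of its outermost start, so it is not the promoter of the full-length kinase. The ROCK2 window also lies inside the gene, close to its 5' end. A match is a description of these letters only, and the windows of MYH9, MYH10, MYH14, MYL6, MYL12A, MYL12B and ROCK1 hold no exact match.

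MYH9 and MYH10 also share a short word in the 3' untranslated region, GTCGTC, which was chosen because it had been followed in an earlier analysis of these data among genes that fell. It was searched on the transcript strand, and 5.86% of 12665 tested coding genes hold it there. The sites are shown as 30 bases of transcript, at chr22:36282248-36282277 for MYH9 and chr17:8475435-8475464 for MYH10, both on the minus strand of GRCh38, with the word in capitals.
MYH9: ggagcccccgcaGTCGTCagcctccctgac
MYH10: ggcagcgccgtgGTCGTCactcagtcgctc
Of these carriers MYH9 fell (log2 fold change -0.36) and MYH10 did not pass (0.09). MYL9 and MYLK, the other members that fell, hold the word nowhere in their basic transcripts, and MYH14 holds it outside the 3' region. The part of the word in the change of MYH9 was not tested.

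Lists of genes that feed into or act on myosin II were chosen with earlier results of these data known, so their counts are descriptions, to be read against the 37.2% of all genes called (18.9% up, 18.3% down). Of 15 other kinases of the regulatory light chain tested, 4 fell and 1 rose, which is 33.3% and near the share of all genes, with a median log2 fold change of -0.05. DESeq2 called 4 of them, all down, and called 2745 genes up and 2460 down of the 16633 genes fitted. The death-associated protein kinases DAPK3, which phosphorylates the light chain directly, DAPK1 and DAPK2 fell 1.23-fold, 1.21-fold and 1.31-fold (edgeR adjusted p = 0.00016, 0.0016 and 0.014), and the Cdc42 effector PAK4 fell 1.12-fold. Corrected for GC and length, DAPK3 had a log2 fold change of -0.05 and PAK4 one of 0.02, while DAPK1 and DAPK2 still passed. That left 2 of the 15 down and 1 up, when 29.3% of all genes were called.

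The myosin phosphatase list held catalytic subunits of protein phosphatase 1, targeting subunits and inhibitors. Counts do not show which catalytic subunit acts on myosin. Of 8 genes of the list tested, 4 rose and 1 fell (62.5% called, against 37.2% of all genes), with a median log2 fold change of 0.11. PPP1CC, a catalytic subunit of protein phosphatase 1, rose 1.21-fold to 349 to 360.1 CPM in knockdown libraries, against 287 to 301 CPM in control libraries. PPP1CB, another catalytic subunit named here beyond the 4 of smallest p, rose 1.12-fold (edgeR adjusted p = 0.010). Corrected for GC and length, PPP1CB had a log2 fold change of 0.02 and did not pass (edgeR adjusted p = 0.81). PPP1R12A, the targeting subunit that brings a catalytic subunit to myosin and that ROCK phosphorylates, rose 1.21-fold (log2 fold change 0.27, SE 0.06, edgeR adjusted p = 6.0e-04). PPP1R14C, an inhibitor of protein phosphatase 1, rose 1.47-fold at a low level of 6.09 CPM in knockdown cells and 4.14 CPM in control cells. PPP1R12C, a related targeting subunit, fell 1.28-fold (log2 fold change -0.35), and it did not pass once GC and length were corrected for (-0.08, edgeR adjusted p = 0.20). With the correction 4 of the 8 rose and 0 fell, when 29.3% of all genes were called, but the 4 were not the same. PPP1CA then passed (log2 fold change 0.12, edgeR adjusted p = 0.044) and PPP1CB did not.

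Of 28 tested genes for folding, assembly and binding partners of myosin II, 6 rose and 8 fell (50% called, against 37.2% of all genes). The smallest p was that of CALM3, a calmodulin gene, which stood at 379, 383 and 379 CPM in knockdown libraries, against 589, 624 and 612 CPM in control libraries (log2 fold change -0.68, SE 0.05, edgeR adjusted p = 1.6e-10). TRPM7, a channel kinase that phosphorylates myosin heavy chains, rose 1.33-fold, the ring scaffold anillin (ANLN) 1.25-fold and the tropomyosin TPM3 1.22-fold. Corrected for GC and length, 4 of these 28 genes were up and 4 down, close to the 29.3% of all genes then called.

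Unconventional myosins, motors that do not form filaments, had 4 of 14 up and 1 down (35.7% called, near the 37.2% of all genes). DESeq2 called 4 of the 14, of which 3 rose, against 2745 up and 2460 down of the 16633 genes fitted. MYO5B rose 1.52-fold, MYO1E 1.24-fold and the vesicle motor MYO5A 1.18-fold, while MYO7A fell 1.52-fold at a level of 1.78 CPM in knockdown cells and 2.72 CPM in control cells. None of the 6 muscle-type myosin chains tested passed by edgeR or by DESeq2, and 1 had an unadjusted p under 0.05. Of SRF and its cofactors, SRF fell 1.13-fold (log2 fold change -0.18, and -0.02 with GC and length corrected for), and MRTFB rose by 0.21 on the log2 scale.

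**Figure D5:**
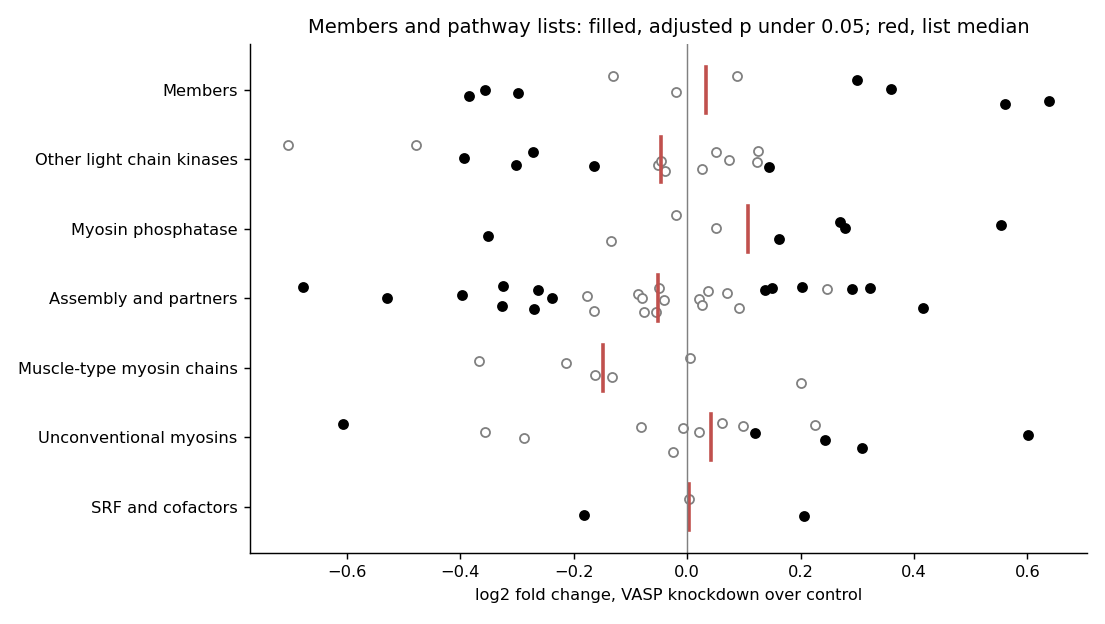
Log2 fold change, VASP knockdown over control, of the 10 members and of the tested genes in each pathway list described here, 1 point per gene (filled, edgeR adjusted p under 0.05) with the median as a red line. Filled points lie on both sides of 0 in the members and in every list but the muscle-type chains, which have none.

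Some genes followed nearly the same course over the 6 libraries as single members. Likeness was the root mean square difference of log2 CPM, with 0.5 CPM added first, after centring each gene on its mean. Genes near a member share its libraries and its group difference on that scale. Nearest to MYH9 were BICC1 (0.0151), TOLLIP (0.0218) and TK2 (0.0226), and nearest to MYL9 were CYP27A1 (0.0209), BCAS3 (0.0266) and CCDC71L (0.0279). RRNAD1 (0.0203), SLC17A5 (0.0250) and C11orf54 (0.0261) lay nearest to MYLK. For the members that rose, the nearest were VPS29 (0.0154) for MYL12B, BCLAF1 (0.0155) for ROCK1, DDX58 (0.0261) for ROCK2 and MAP4K4 (0.0514) for MYH14. The added 0.5 CPM shrinks the change of the scarce MYH14 on this scale. In the edgeR fit MAP4K4 had a log2 fold change of 0.44, against 0.64 for MYH14.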

How the data were processed

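RNA of MDA-MB-231 cells was sequenced in 3 VASP knockdown and 3 control libraries. The authors deposited whole-number fragment counts per gene symbol, counted by featureCounts 1.6.4 from read pairs over exons of GENCODE release 32 on GRCh38, per the file headers. Per the submitters' processing notes, Trim Galore 0.6.4 and STAR 2.7.1a were also used. The command shows no strand, multi-mapping or multi-overlap option. Headings of the 3 control columns show the group but not which control sample each is, so control libraries are numbered in table order. Those headings carry an extra number that is the same in all of them, which could mean repeats of a single culture. The knockdown headings carry no such number.

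Genes were filtered with filterByExpr, TMM-scaled and tested with edgeR 4.0.16 (R 4.3.3, two-sided quasi-likelihood, group as sole term), with Benjamini-Hochberg adjustment over 16633 genes. SE is the log2 fold change over the square root of F. The GC and length correction used per-library natural splines with 5 degrees of freedom, over the 97.4% of genes with a GC value in GENCODE release 29. The fit was tested on simulated counts with the same spread for every gene, few changed genes and no GC trend. These data differ in each of those, so that test does not show how the fit performs here. Libraries of 1 group differed beyond sampling noise (chi-square over degrees of freedom 5.67 to 9.73), and each counted as 1 replicate. Shares were compared with exact permutation tests.

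Members and lists were chosen with earlier results of these data known. Named were all members, VASP and, per list, the up to 4 called genes of smallest p, with the exceptions said in the text. Some pathway results are not reported here. Alternatives were DESeq2 1.42.0, other scalings and filters, a null of 1.2-fold, the correction and leaving out each library. Counting limits cover counting error only.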

Additional observations from a re-analysis of the deposited data

How the results depend on the processing

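The 7 calls among the members kept their direction in every alternative run, and MYH14 without control library 2 was the 1 call lost among the alternatives that test against no change. Against a fold change of 1.2, by edgeR's glmTreat, 1 member rose and 0 fell by adjusted p. By the same rule 324 genes rose and 629 fell of the 16633 tested. At an unadjusted p under 0.05 in that test, 3 members rose and 2 fell. The share of all genes at that unadjusted cut was not computed. With the correction for GC content and length, 2808 genes rose and 1935 fell, against 3148 and 3039 without it. Leaving out single libraries gave 2238 to 3249 genes up and 2243 to 3150 down, with 3 to 4 members up and 3 to 4 down, MYL6 being the member gained. MYL6 also passed with a filter of 1 CPM in 3 libraries (adjusted p = 0.049). The sign of MYL12A, which was not called, turned with total counts as the scale (0.0050), with no low-count filter (0.0022) and without single libraries (-0.064 to 0.020). Every share kept its direction with counts not divided by length, where the groups overlapped for MYL12A, and with principal transcript lengths, chosen after seeing the data. No paired analysis was possible because the control columns cannot be matched to numbered control samples. MYH14, at 29 to 60 counts a library, is the member whose depth limits its estimate most.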
